A study of Mus musculus with 3 samples.

Results

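Interferon-stimulated genes, the genes that a cell switches on after it has bound an interferon, were followed in single cells from 3 tissues of mice, the tendon injury site, blood, and bone marrow, 3 days after burn/tenotomy. The 42 genes were chosen by name as well-known targets of type I interferon, not by their levels, out of 27998 genes listed in the count tables, and all 42 had at least 1 unique molecular identifier (UMI) count in each library. The injury combines a burn of the back with a cut through the Achilles tendon and serves as a model of heterotopic ossification. Each tissue is represented by 1 library of unsorted cells from 10-week-old male C57BL/6J mice, all of them injured, with no uninjured library among those analysed. How many mice went into a library is not known from the sources used. Marrow was flushed from femurs. Blood was layered over Ficoll and only its mononucleated cells were taken on. Both marrow and blood cells were freed of red cells by lysis, and the injury site was digested with collagenases and dispase at 37°C. Tissue, preparation, and library therefore cannot be told apart. With 1 library per tissue there is no replicate check, no test was run, and every interval below is a 95% interval for counting error only.

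Type I interferons bind a receptor made of *Ifnar1* and *Ifnar2* and signal through kinases to a complex that holds *Stat2* and *Irf9* and binds the interferon-stimulated response element in the promoters of target genes. The targets include sensors of foreign nucleic acid, enzymes and binding proteins that act on viral RNA, the ubiquitin-like *Isg15* and its partners, transcription factors such as *Irf7* that feed the response, membrane proteins that block virus entry or release, and chemokines. Some targets, such as *Ifitm3*, are also kept at a high level without interferon, whereas others, such as *Ifit1* and *Rsad2*, are nearly silent until interferon arrives. A low tonic level of the response is known in resting leukocytes, and macrophages are both sources and targets of the cytokine.

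The promoters of 5 members are shown. *Ifit1*, *Ifit3*, *Isg15*, and *Rsad2* are among the members that carry the differences described below. *Irf7* is the member whose levels followed those of the other members most closely. Each window runs from 250 bases before to 50 bases after the gene start, 5′ to 3′ on the strand of the gene, and comes from RefSeq on GRCm38.p6. Capitals mark the GAAA blocks of GAAANNGAAA, the core of the response element, which read as TTTC where the match lies on the opposite strand. *Ifit1* lies on the plus strand at chr19:34640639-34640938, *Ifit3* on the plus strand at chr19:34583279-34583578, *Isg15* on the minus strand at chr4:156200769-156201068, *Rsad2* on the minus strand at chr12:26456403-26456702, and *Irf7* on the minus strand at chr7:141266375-141266674.
Ifit1: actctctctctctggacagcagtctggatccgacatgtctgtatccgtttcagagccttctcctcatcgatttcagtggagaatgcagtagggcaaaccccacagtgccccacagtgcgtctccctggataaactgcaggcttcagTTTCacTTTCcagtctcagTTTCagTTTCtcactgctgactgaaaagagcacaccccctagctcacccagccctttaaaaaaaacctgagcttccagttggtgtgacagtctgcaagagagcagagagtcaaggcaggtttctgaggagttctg
Ifit3: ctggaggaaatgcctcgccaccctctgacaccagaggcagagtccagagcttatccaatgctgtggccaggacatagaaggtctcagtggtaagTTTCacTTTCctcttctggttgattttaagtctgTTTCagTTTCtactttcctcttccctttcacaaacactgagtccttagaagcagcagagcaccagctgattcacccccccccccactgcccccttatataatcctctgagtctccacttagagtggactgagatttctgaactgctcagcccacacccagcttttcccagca
Isg15: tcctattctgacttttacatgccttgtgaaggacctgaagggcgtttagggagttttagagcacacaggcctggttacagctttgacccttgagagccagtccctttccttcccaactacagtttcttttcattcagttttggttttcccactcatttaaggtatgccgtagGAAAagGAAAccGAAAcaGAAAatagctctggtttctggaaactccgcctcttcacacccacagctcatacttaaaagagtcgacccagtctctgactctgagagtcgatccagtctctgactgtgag
Rsad2: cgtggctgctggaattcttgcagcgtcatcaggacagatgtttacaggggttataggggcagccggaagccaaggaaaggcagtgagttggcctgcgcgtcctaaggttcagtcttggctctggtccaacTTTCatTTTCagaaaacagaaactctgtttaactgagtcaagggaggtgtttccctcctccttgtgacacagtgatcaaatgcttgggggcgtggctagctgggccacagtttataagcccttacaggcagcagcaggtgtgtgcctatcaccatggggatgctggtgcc
Irf7: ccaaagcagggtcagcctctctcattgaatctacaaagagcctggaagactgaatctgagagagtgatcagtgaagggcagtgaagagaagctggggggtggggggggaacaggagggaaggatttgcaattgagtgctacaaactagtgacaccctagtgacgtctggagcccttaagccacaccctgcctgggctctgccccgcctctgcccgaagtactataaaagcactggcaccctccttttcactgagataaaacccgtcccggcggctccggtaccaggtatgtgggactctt

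The response element core was searched on both strands in the windows of 33 members, those with an entry in the table. *Dhx58*, *Zbp1*, *Ifi204*, *Oas2*, *Usp18*, *Parp9*, *Parp14*, *Rtp4*, and *Ifi27l2a* had none. It was found in 16 of the 33 members (48.5%) and in 1079 of all 27025 genes with a window (3.99%). *Isg15* held 3 matches, which overlap one another at 78, 72, and 66 bases before its start, and *Ifit1* held a pair that began 104 and 85 bases before its start. *Ifit3* held matches at 156 and 122 bases, and *Rsad2* held 1 at 120 bases. Of the 24 matches in all, 15 began within the 200 bases before the start. The windows of *Irf7* and of *Ifit2*, the latter not shown, held no response element core. This says only that these letters are absent from these windows. The core was present in 5 of 10 strongly inducible members (50%) and in 11 of 23 other members (47.8%), so the 2 kinds of member were not set apart by it. TTCNNNGAA, the core of the gamma-activated site, reads the same on both strands and was found in 7 of 33 members (21.2%) and in 9.55% of all genes with a window. In *Bst2* and *Ifitm3* it overlapped a response element core. A match is a description of letters and was not linked to binding in these cells.

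**Figure D1:**
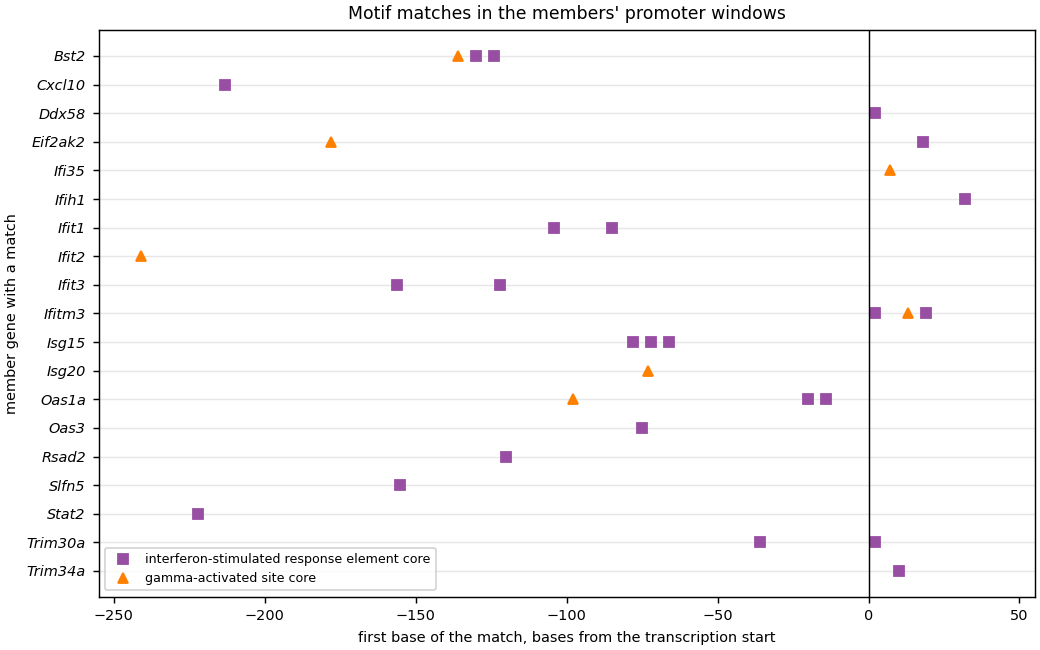
Position of each motif match in the promoter windows of the members that hold one, with the distance of the first base from the gene start in bases on the x axis and 1 row per gene. Squares mark the GAAANNGAAA core (interferon-stimulated response element) and triangles the TTCNNNGAA core (gamma-activated site), and 15 of the 24 response element cores lie within the 200 bases before the start.

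The libraries held 1855 cells of bone marrow, 2241 of blood, and 5629 of the injury site, with 22542581 to 90621052 UMIs each, and 1813, 2146, and 4780 cells were kept. Only 9 cell barcodes occurred in more than 1 library. Cells were clustered within each library on variable genes that left out the interferon lists, and clusters were named by markers, with the name ending in -like since it rests on markers alone. No name was given to 36.2% of marrow cells, 10.2% of blood cells, and 33.5% of injury site cells, and these are described by cluster number where they matter. This left 17 classes of at least 50 cells. Levels are given as CPM, the UMIs of a gene among 1000000 of all UMIs in the class, so less RNA per cell is not visible in them, and since counts come from the 3′ ends of transcripts they are compared between cells and not between genes. The marker lists set limits on some classes, with neutrophil markers making up 4948 CPM of blood monocyte/macrophage-like cells, 10246 CPM of those of marrow, and 1014 CPM of those of the injury site. Platelet markers made up 3310 CPM of monocyte/macrophage-like cells of the injury site, 793 CPM in blood, and 0.639 CPM in marrow. The part of these other cells' RNA in the results was not tested. Several members have close copies in the mouse genome, among them *Ifit3*, *Oas1a*, *Trim30a*, and *Ifi204*, and reads shared with a copy make their levels uncertain.

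The members were highest, as a sum, in myeloid and endothelial classes and lowest in progenitor-like, Schwann-like, and keratinocyte-like cells. The sum of the 42 genes was 7505 CPM [7439 to 7572] in blood monocyte/macrophage-like cells, 5647 CPM [5545 to 5751] in dendritic-like cells of the injury site, 5115 CPM [5086 to 5144] in monocyte/macrophage-like cells of the injury site, and 5064 CPM [4992 to 5137] in blood neutrophil-like cells. The last of these classes had overlapping intervals with the class before it, and the others did not. Marrow monocyte/macrophage-like cells followed at 4525 CPM and endothelial-like cells at 4357 CPM. Neutrophil-like cells of the injury site stood at 3399 CPM, above those of marrow at 2570 CPM. Lymphocytes lay lower, at 2332 CPM in blood B-like, 2192 CPM in blood T-like, and 1910 CPM in blood NK-like cells, and keratinocyte-like cells, Schwann-like cells, and granulocyte/monocyte progenitor-like cells stood at 965, 754, and 565 CPM. *Ifitm3* made up 47.4% of all member UMIs and *Ifi27l2a* 12.03%, so this order is largely that of those 2 genes.

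A sum over 12 strongly inducible members (*Ifit1*, *Ifit2*, *Ifit3*, *Rsad2*, *Cmpk2*, *Isg15*, *Usp18*, *Irf7*, *Oasl1*, *Oas2*, *Cxcl10*, and *Ifi44*) gave another order. It was highest in a class of 50 cells of the injury site named basophil/mast-like, at 1294 CPM [1158 to 1440], of which *Cxcl10* made up 592 CPM. That class was mixed, with NK markers at 2716 CPM and T markers at 1001 CPM beside its own markers at 10571 CPM. It held all 49 *Ifng* UMIs of its library. The counting interval of this class does not cover the spread between its cells. After the thinning described below, 29 of its 40 remaining cells (72.5%) had none of the 12 genes, and 2 had at least 3 of them. The share with none was 67.1% in monocyte/macrophage-like cells of the injury site. Dendritic-like cells at 737 CPM [700 to 775] and monocyte/macrophage-like cells at 723 CPM [712 to 734] of the injury site came next and did not differ beyond counting error. Blood neutrophil-like cells stood at 543 CPM [519 to 567], endothelial-like cells at 446 CPM [432 to 461], and neutrophil-like cells of the injury site at 422 CPM [391 to 454]. Blood monocyte/macrophage-like cells, first by the full sum, stood at 261 CPM [249 to 274], and those of marrow at 164 CPM [154 to 174]. Keratinocyte-like cells, with a median of 38758 UMIs per cell, were lowest among classes of at least 50 cells, at 7.20 CPM [5.42 to 9.37].

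**Figure D2:**
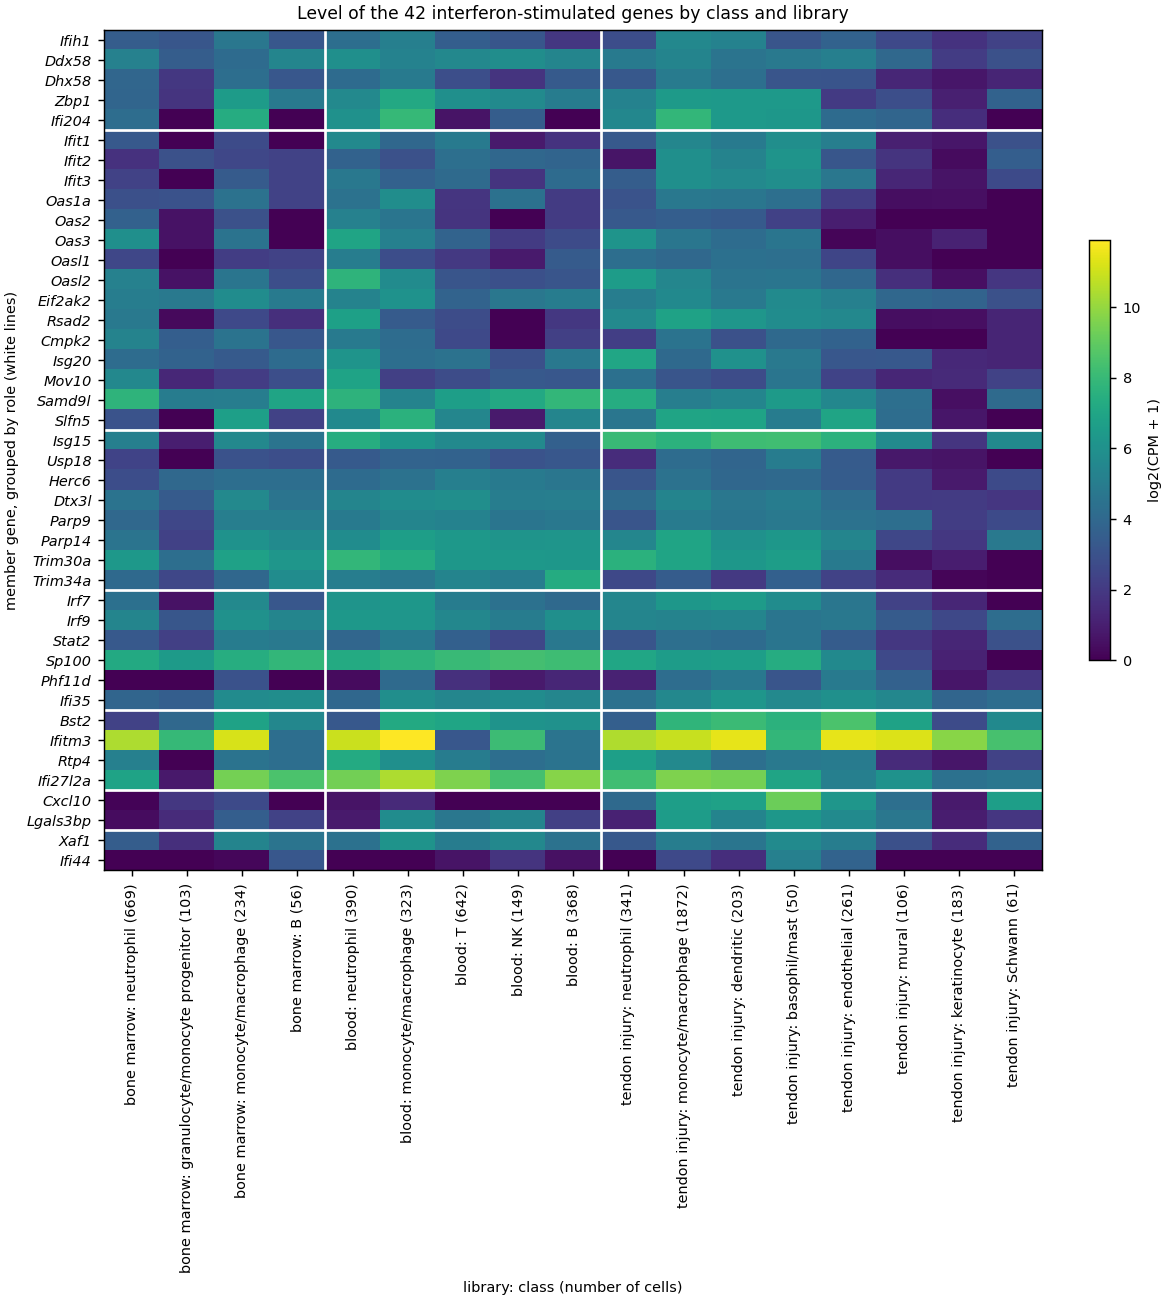
Level of each of the 42 members (rows, by role) in the 17 classes of at least 50 cells (columns), as log2(CPM + 1) from dark (low) to yellow (high), with white lines between the 3 libraries and between roles. *Ifitm3* and *Ifi27l2a* hold the brightest fields, *Cxcl10* is bright only among classes of the tendon injury library (other than keratinocyte-like cells), and the keratinocyte-like, Schwann-like, and progenitor-like columns are dark in most rows.

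**Figure D3:**
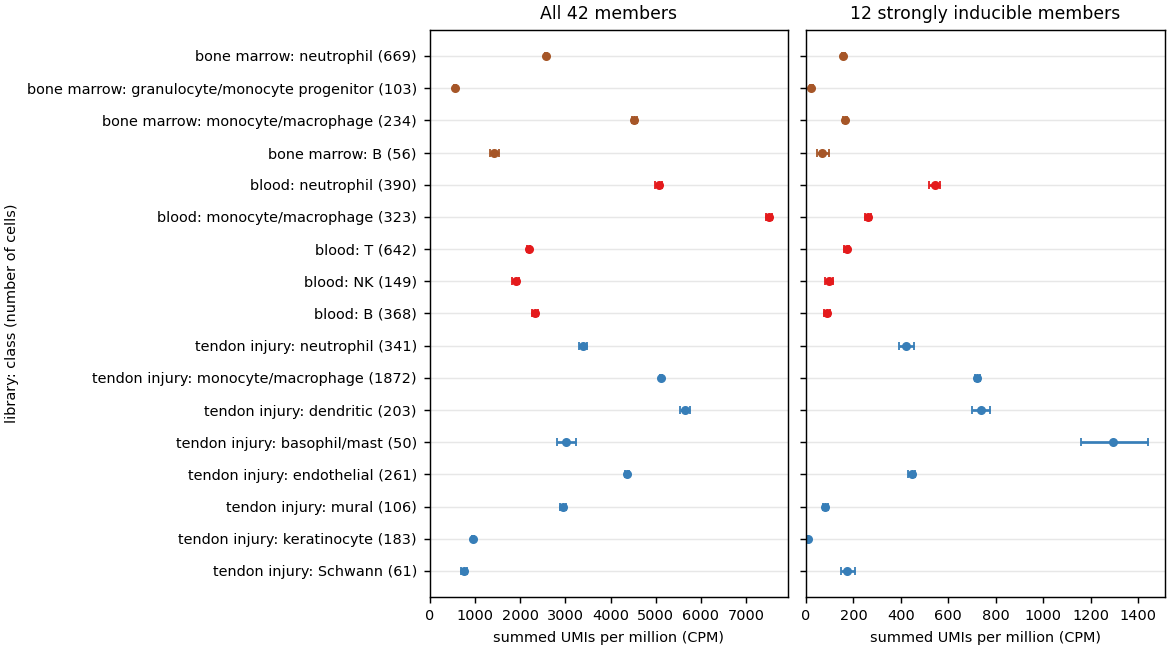
Summed level in CPM of all 42 members and of the 12 strongly inducible members in each class of at least 50 cells, with bars of the 95% counting interval. Blood monocyte/macrophage-like cells lead the first sum at 7505 CPM and stand at 261 CPM in the second, where the 3 highest classes are all from the injury site.

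Blood monocyte/macrophage-like cells and blood neutrophil-like cells each held the highest level of 9 members, and the monocyte/macrophage-like and basophil/mast-like classes of the injury site each held that of 6. This order and those that follow are among the 17 classes of at least 50 cells. How many of all genes had their highest level in each class was not counted. For most members the intervals of the leading class and the next one overlapped, so their leading class was not settled. Among them were *Ifih1*, *Dhx58*, *Ifit3*, *Rsad2*, and *Lgals3bp*, led by monocyte/macrophage-like cells of the injury site. *Ifit1*, *Ifit2*, *Isg15*, and *Usp18*, led by the basophil/mast-like class, and *Ifi204* were others. Some smaller classes stood higher, with *Rsad2* at 336 CPM [239 to 459], *Isg20* at 344 CPM [246 to 469], and *Isg15* at 387 CPM [282 to 518] in 21 blood cells named erythroid-like, and *Irf7* at 125 CPM [94.99 to 162] and *Stat2* at 94.9 CPM [69.0 to 127] in 39 plasmacytoid dendritic-like cells of marrow. The erythroid-like class was mixed, with platelet markers at 6325 CPM and T markers at 1282 CPM beside its own markers at 237649 CPM. Which of its cells carried these members was not tested. Among the sensors, *Ifih1* and *Dhx58*, which recognize or regulate recognition of double-stranded RNA, were highest in monocyte/macrophage-like cells of the injury site at 45.3 and 29.4 CPM. *Zbp1*, a sensor of nucleic acid in the Z form, and *Ifi204*, a sensor of DNA, were highest in those of blood at 143 and 247 CPM. *Ddx58*, the RNA helicase RIG-I, was spread more evenly, with 58.9 CPM in blood neutrophil-like, 56.3 CPM in blood NK-like, and 45.6 CPM in blood T-like cells. The sensors thus did not share a single leading class.

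Among the effectors that act on RNA are the Ifit genes, of which *Ifit1* makes a protein that binds RNA without host cap marks. The Ifit genes neighbor one another on chromosome 19 (*Ifit2* at 34550694 to 34576419, *Ifit3* at 34583531 to 34588731, and *Ifit1* at 34640871 to 34650009 on GRCm38). *Ifit3* was 60.2 CPM in monocyte/macrophage-like cells of the injury site, 58.4 CPM in the basophil/mast-like class, 47.4 CPM in dendritic-like cells, 26.5 CPM in blood neutrophil-like cells, and 25.0 CPM in endothelial-like cells, against 12.1 and 9.74 CPM in monocyte/macrophage-like cells of blood and marrow. *Rsad2*, the antiviral enzyme viperin, was 115 CPM [110 to 119] in monocyte/macrophage-like cells of the injury site and 108 CPM [97.8 to 119] in blood neutrophil-like cells, and no other class of at least 50 cells passed 74.2 CPM. *Ifit1* was 58.4 CPM in the basophil/mast-like class, 48.1 CPM in blood neutrophil-like cells, 42.3 CPM in monocyte/macrophage-like cells of the injury site, 33.2 CPM in endothelial-like, and 27.6 CPM in blood T-like cells, and it had 0 UMIs in marrow B-like and progenitor-like cells. *Rsad2* was therefore high in a macrophage class of the injury site and in a neutrophil class of blood. *Ifit3* was high in the same macrophage class, but its basophil/mast-like and dendritic-like levels stood above that of blood neutrophil-like cells. The oligoadenylate synthetase *Oas3*, its relative *Oasl2*, and the RNA helicase *Mov10* had their highest levels in blood neutrophil-like cells, at 121, 215, and 118 CPM, whereas the exonuclease *Isg20* was highest in neutrophil-like cells of the injury site at 129 CPM. *Oas1a* and *Eif2ak2*, the RNA-dependent kinase PKR, were highest in blood monocyte/macrophage-like cells, at 55.2 and 66.4 CPM. *Samd9l* was highest in blood B-like cells at 234 CPM and close behind in neutrophil-like cells of marrow and blood at 212 and 205 CPM.

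*Isg15*, a ubiquitin-like protein that is attached to other proteins or secreted, was high in the leukocyte classes of the injury site with at least 50 cells, at 300 CPM [237 to 375] in the basophil/mast-like class, 292 CPM [269 to 316] in dendritic-like, 261 CPM [237 to 287] in neutrophil-like, and 198 CPM [192 to 204] in monocyte/macrophage-like cells, and it reached 195 CPM [186 to 205] in endothelial-like cells. In blood it was 171 CPM in neutrophil-like and 78.7 CPM in monocyte/macrophage-like cells, and in marrow 34.6 and 46.0 CPM. *Usp18*, which removes *Isg15* and restrains the interferon receptor, had few UMIs and did not pass 31.2 CPM in any class. The ubiquitin ligase genes *Trim30a* and *Trim34a* differed from each other, with *Trim30a* highest in blood neutrophil-like cells at 234 CPM and *Trim34a* in blood B-like cells at 159 CPM. *Irf7*, the transcription factor that amplifies type I interferon production, was 90.4 CPM [77.8 to 104] in dendritic-like cells of the injury site, 77.9 CPM [71.2 to 85.0] in monocyte/macrophage-like cells of blood, 76.9 CPM [73.3 to 80.6] in those of the injury site, and 69.5 CPM [61.2 to 78.5] in blood neutrophil-like cells, an order in which neighboring classes did not differ beyond counting error. *Irf9* was highest in blood neutrophil-like cells at 79.5 CPM and *Sp100*, a protein of nuclear bodies, in blood NK-like cells at 325 CPM.

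*Bst2*, or tetherin, which holds budding virus at the cell surface, was 372 CPM [358 to 385] in endothelial-like cells and 219 CPM in monocyte/macrophage-like cells of the injury site, and only 4.02, 8.65, and 11.0 CPM in neutrophil-like cells of marrow, blood, and injury site. It set apart a marrow class of 39 plasmacytoid dendritic-like cells at 4663 CPM, the cell type in which it is a known surface marker. *Ifitm3*, which blocks fusion of virus with cell membranes, was 3792 CPM in blood monocyte/macrophage-like cells, 2832 CPM in dendritic-like, 2792 CPM in endothelial-like, and 2448 CPM in mural-like cells, and 8.38 CPM in blood T-like cells. *Ifi27l2a*, a small membrane protein, was highest in blood monocyte/macrophage-like cells too, at 1384 CPM. Unlike *Ifitm3* it was also high in blood B-like and T-like cells, at 852 and 782 CPM. It stood at 771 CPM in monocyte/macrophage-like cells of the injury site, 336 CPM in blood NK-like cells, and 33.8 CPM in endothelial-like cells. *Cxcl10*, a chemokine that draws activated T cells and NK cells, was nearly confined to the injury site among these classes, at 15.8 to 592 CPM in its classes other than keratinocyte-like cells (0.785 CPM) and at 5.43 CPM or less in every class of blood and marrow. *Xaf1*, which promotes cell death, was highest in blood monocyte/macrophage-like cells at 68.5 CPM.

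Whether macrophages at the injury carry more of this program than circulating monocytes was addressed by comparing the monocyte/macrophage-like classes. The classes differed in make-up. That of blood held cluster 4 (286 cells, led by *Vcan* and *F13a1*, 12-gene sum 296 CPM). It also held cluster 10 (37 cells, led by *Ptgis*, *Cxcl13*, and *Timd4*, 93.8 CPM). It left out the unnamed cluster 6 (116 cells, led by *Cd300e*, 106 CPM). That of the injury site left out the unnamed cluster 5 (314 cells, led by *Arg1*), with 3 monocyte/macrophage markers among its leading genes. Clusters 7 (267 cells, led by *Atp6v0d2*) and 19 (48 cells, led by *Cd209b*) were unnamed there too. After the thinning described below, 2.30%, 0.488%, and 6.25% of cells in clusters 5, 7, and 19 had at least 3 of the 12 genes. The share was 7.07% in the class. What part leaving them out had was not tested. The sum of the 42 genes was lower in the 1872 cells of the injury site than in the 323 cells of blood, at 5115 against 7505 CPM (log2 ratio −0.55 [−0.57 to −0.54]). Without *Ifitm3*, *Bst2*, *Ifi27l2a*, and *Lgals3bp* the sums were equal, at 2125 CPM in both. Of the 42 members 9 were at least 2-fold higher and 5 at least 2-fold lower at the injury site, beside 17.1% and 12.3% of all 11452 genes with at least 20 UMIs over both groups. With blood cluster 6 counted in, 8 were higher and 2 lower, and without blood cluster 10 the counts were 10 and 7. Matching shares of all genes for these regrouped classes are not given here. The median log2 ratio was −0.15 for the members and −0.03 for all genes, so the members as a list did not lean toward the injury site.

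The 9 higher members were mostly strongly inducible ones. *Cxcl10* was 101 against 1.70 CPM (log2 ratio 5.89 [5.05 to 6.90]), *Rsad2* 115 against 9.58 CPM (3.58 [3.22 to 3.97]), and *Ifit2* 59.7 against 6.80 CPM (3.14 [2.70 to 3.60]). *Ifit3* differed by 2.32 [1.99 to 2.67], *Ifit1* by 1.53 [1.22 to 1.85], *Oasl1* by 1.36 [0.88 to 1.87], *Isg15* by 1.33 [1.20 to 1.46], and *Mov10* by 1.05 [0.43 to 1.73], and *Ifi44*, with 117 UMIs against 0, was at least 11.0-fold higher. Other strongly inducible members were level, with *Irf7* at 76.9 against 77.9 CPM (−0.02 [−0.16 to 0.13]) and *Usp18* and *Cmpk2* at 0.43 and 0.34. The 5 lower members were *Trim34a* (−1.34), *Oas2* (−1.12), *Xaf1* (−1.09), *Sp100*, and *Oas1a* (both −1.08). All 3 Ifit genes were among the higher members, and of the 5 Oas and Oasl genes *Oas1a* and *Oas2* were lower, *Oasl1* was higher, and *Oas3* (−0.51) and *Oasl2* (−0.32) differed by less than 2-fold. *Ifitm3* (−0.99) and *Ifi27l2a* (−0.84), which lead the sum, were both lower by less than 2-fold.

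These higher values came in large part from 1 cluster. Cluster 9 of the injury site (245 cells, led by *Dnase1l3*, *Gpnmb*, and *Ifit2*), picked out here because its level of the 12 genes was the highest in the class, held 15.01% of the UMIs of the class and 53.9% of its UMIs of the 12 genes. Its share was 75.6% for *Ifit2*, 73.2% for *Ifit3*, 62.9% for *Rsad2*, and 43.1% for *Isg15*, but 8.10% for *Ifitm3* and 9.19% for *Ifi27l2a*. Without it the 1627 remaining cells had 4 members at least 2-fold higher than in blood and 8 at least 2-fold lower (16.6% and 13.2% of all genes), with the sum at 4660 CPM and the median of the members at −0.61. The 4 were *Cxcl10* (5.16), *Rsad2* (2.38), *Ifit2* (1.33), and *Ifi44* (at least 1.53 on the log2 scale). Whether the cells of this cluster took the class name depended on the clustering. At least 232 of them did so without a mitochondrial filter, at a resolution of 0.5, and when each cell was named on its own, against 42 of 242 under stricter filters, 42 of 245 without removal of doublets, 15 at a resolution of 2.0, 21 with the interferon lists kept, and 48 with the libraries clustered together, and the others were then left unnamed. Under stricter filters on cells, without removal of doublets, at a finer resolution, or with the interferon lists kept among the variable genes, 1 to 4 members were at least 2-fold higher and 8 to 20 lower. Shares of all genes under these settings are not given here. When each cell was named on its own 9 members were higher and 6 lower, beside 18.3% and 12.8% of all genes.

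**Figure D4:**
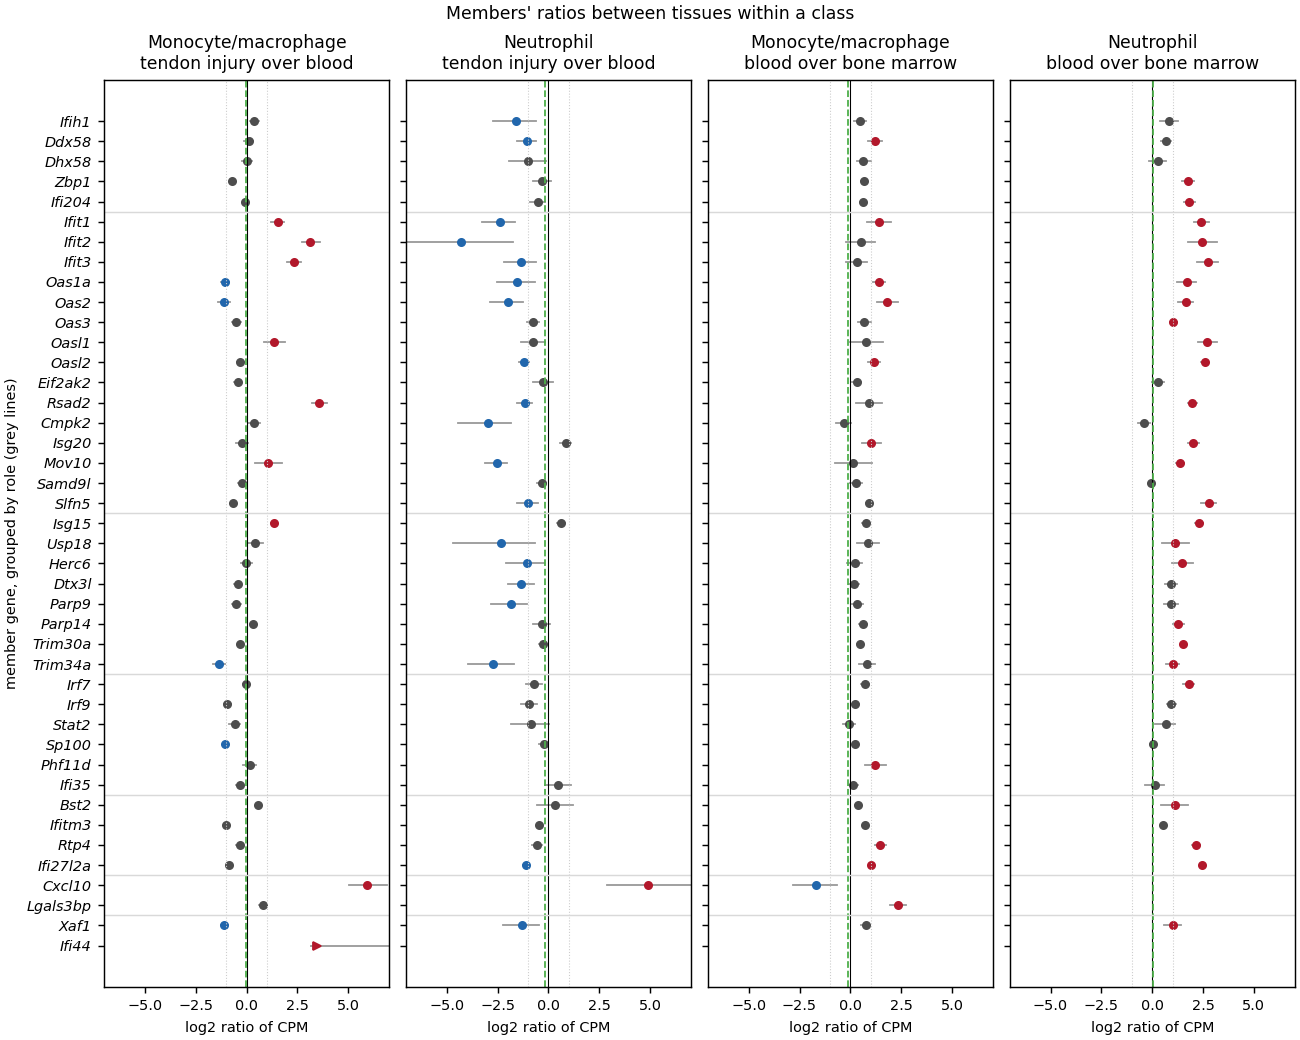
Log2 ratio of the CPM of each member between tissues, for injury site over blood and blood over bone marrow in monocyte/macrophage-like and in neutrophil-like cells, with bars of the 95% counting interval, 1 row per gene, red and blue for 2-fold or more (dotted lines), and a green dashed line at the median of all genes. *Cxcl10*, *Rsad2*, *Ifit2*, and *Ifit3* lie to the right in the first panel, 34 of 39 members lie to the left for neutrophil-like cells of tendon injury over blood, and 36 of 38 lie to the right for those of blood over marrow. Members with under 20 UMIs are not drawn, the arrowhead marks a lower limit, and bars that reach the edge go on beyond it.

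In neutrophil-like cells the members were lower at the injury site than in blood and lower in marrow than in blood. The blood library came from the mononucleated cells of a Ficoll gradient, so its neutrophil-like cells may not stand for all blood neutrophils. What part this had in both differences was not tested. For injury site over blood (341 and 390 cells) the sum was 3399 against 5064 CPM (log2 ratio −0.58 [−0.62 to −0.53]), and 1 of 39 members with enough UMIs was at least 2-fold higher and 19 were lower, beside 13.5% and 16.5% of 6494 genes. The injury site class left out the unnamed cluster 10 (221 cells, led by *Il23a*, with 10 neutrophil markers among its leading genes and a median of 2628 UMIs per cell), whose 12-gene sum was 478 CPM [425 to 536] against 422 CPM in the class. With it counted in, the sum differed by −0.70, and 1 member was higher and 19 were lower, for which shares of all genes are not given here. The median log2 ratio was −0.997 for the members and −0.15 for all genes, and centered on the median gene the sum differed by −0.43. *Ifit2* had 1 UMI against 45 (−4.32 [−9.65 to −1.77]), *Cmpk2* was 3.66 against 29.2 CPM (−3.00), and *Trim34a* 4.88 against 31.9 CPM (−2.71). *Mov10* (−2.55), *Ifit1* (−2.40), *Ifit3* (−1.35), and *Rsad2* (−1.17), all higher in the macrophage comparison, were lower in this one. *Cxcl10* was the member at least 2-fold higher, with 26 against 2 UMIs (4.87 [2.88 to 7.99]). Mesenchymal and keratinocyte markers made up 124 and 118 CPM of this injury site class, against 1.08 and 13.2 CPM in blood. The part of other cells' RNA in the *Cxcl10* value was not tested. *Isg20* at 129 against 71.1 CPM (0.86) and *Isg15* at 261 against 171 CPM (0.61) were higher by less than 2-fold. *Ifi35* (0.48 [−0.18 to 1.12]) and *Bst2* (0.34 [−0.58 to 1.22]) did not differ beyond counting error. Of the effectors on RNA, 10 of 15 were lower and none was higher, and of the *Isg15*, ubiquitin, and ADP-ribose enzymes 5 of 8 were lower.

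For blood over marrow (390 and 669 neutrophil-like cells) the sum was 5064 against 2570 CPM (0.979 [0.953 to 1.005]), and 25 of 38 members were at least 2-fold higher and 0 lower, beside 13% and 13.4% of 8230 genes. The median was 1.33 for the members and 0.05 for all genes. *Slfn5* was 49.7 against 7.30 CPM (2.77 [2.39 to 3.15]), *Ifit3* 26.5 against 4.02 CPM (2.72 [2.21 to 3.24]), and *Oasl1* 31.6 against 4.84 CPM (2.71 [2.24 to 3.18]). *Oasl2* (2.58), *Ifit2* (2.46), *Ifi27l2a* (2.46), *Ifit1* (2.41), and *Isg15* (2.31) followed, so effectors, the ubiquitin-like modifier, and a membrane protein shared the direction. The smallest ratios were those of *Cmpk2* at −0.40 [−0.72 to −0.10], *Samd9l* at −0.05, and *Sp100* at 0.04. *Samd9l*, *Sp100*, *Ifi35* (0.13 [−0.33 to 0.58]), and *Dhx58* (0.26 [−0.18 to 0.69]) did not differ beyond counting error. The classes were not made of the same stages. The 12-gene sum in the marrow clusters of the class ran from 69.4 CPM in the 211 cells of cluster 0 to 162, 232, and 361 CPM in clusters 1, 4, and 5, the last led by *Il1b* and *Steap4*, and it was 643 CPM in the 331 cells of blood cluster 1 and 262 CPM in blood cluster 8, led by the granule genes *Ltf* and *Ngp*. Neutrophil markers themselves made up 506251 CPM of the class in marrow, 372345 CPM in blood, and 236489 CPM at the injury site, and their part in the differences was not tested.

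The sum was also higher in blood than in marrow monocyte/macrophage-like cells. Here too the make-up differed. The marrow class held cluster 3 (161 cells, led by *Ace* and *Saa3*) and cluster 11 (73 cells, led by *Cd109* and *Stbd1*). It left out the unnamed cluster 7 (114 cells, led by *H2-Ab1*). Granulocyte/monocyte progenitor markers made up 3203 CPM in the marrow class and 1063 CPM in that of blood. What part this make-up had in the differences was not tested. The sum differed by 0.73 [0.71 to 0.75], and 10 of 41 members were at least 2-fold higher and 1 lower, beside 6.55% and 10.3% of 10230 genes, with a median of 0.67 for the members and −0.11 for all genes. *Lgals3bp*, a secreted glycoprotein that binds galectins, was 54.9 against 10.9 CPM (2.34 [1.96 to 2.73]), *Oas2* 23.3 against 6.71 CPM (1.80 [1.30 to 2.33]), and *Rtp4* 60.4 against 21.7 CPM (1.48 [1.19 to 1.77]). *Ifit1* (1.39), *Oas1a* (1.39), *Phf11d* (1.22), *Ddx58* (1.20), and *Oasl2* (1.16) were also higher. *Cxcl10* was the lower member, with 11 UMIs in blood and 34 in marrow (−1.68 [−2.81 to −0.66]), and *Cmpk2* (−0.34 [−0.71 to 0.03]) and *Stat2* (−0.06 [−0.35 to 0.24]) were level within counting error. The count of higher members moved with the processing, to 3 with every cell weighted equally, 6 with each cell named on its own (6.95% of all genes), 24 at 1.5-fold, and 31 at the coarser Leiden resolution of 0.5, where the sum differed by 1.64. Matching shares of all genes for the other settings are not given here.

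Within the injury site, neutrophil-like cells were set against monocyte/macrophage-like cells, which share a library and a preparation. The sum was 3399 against 5115 CPM (−0.59 [−0.63 to −0.55]), and 6 of 42 members were at least 2-fold higher and 26 lower in neutrophil-like cells. Of all 11162 genes 10.4% were higher and 52.1% lower, with a median of −1.08 against −1.28 for the members. Centered on the median gene, 11 members were higher and 12 lower, and the shares of all genes after centering are not given here. *Isg20* (3.02 [2.77 to 3.27]), *Samd9l* (2.29), *Oas3* (1.54), *Mov10* (1.39), *Oasl2*, and *Rtp4* (both 1.14) were the higher ones. *Ifit2*, with 1 UMI against 1365 (−6.62), *Lgals3bp* (−6.28), and *Bst2* at 11.0 against 219 CPM (−4.32) lay at the other end. All 3 Ifit genes were on the macrophage side (*Ifit1* −2.21, *Ifit2* −6.62, and *Ifit3* −2.54). Of the 5 Oas and Oasl genes, *Oas3* and *Oasl2* were at least 2-fold higher in neutrophil-like cells, *Oas1a* was lower (−1.84), and *Oasl1* (0.29) and *Oas2* (−0.23) were within counting error of level. With the unnamed cluster 10 counted as neutrophil-like, 5 members were higher and 27 lower, and with the interferon lists kept for clustering 13 were higher and 12 lower. Matching shares of all genes are not given here for these counts.

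The mesenchymal-like class had the members at low levels. The only cluster named mesenchymal-like had 45 cells (led by *Chad*, *Pla2g12b*, and *Cilp2*), and its sum was 1515 against 5115 CPM in monocyte/macrophage-like cells (−1.76 [−1.83 to −1.68]). There 0 of 42 members were at least 2-fold higher and 39 were lower, beside 21.3% and 23.0% of 11541 genes. When each cell was named on its own by its markers, 713 mesenchymal-like and 2385 monocyte/macrophage-like cells were found, and 0 members were higher and 36 lower, beside 31.7% and 19.7% of 13910 genes (median −2.09 for the members and 0.30 for all genes). *Isg15* was 3.80 against 198 CPM in the first comparison and lower by 2.05 on the log2 scale in the second, whereas *Ifitm3* (−0.72 and −0.02) and *Isg20* (0.03 and 0.02) were closer to level. In the first comparison *Samd9l* (−0.54), *Ifi35* (−1.25), and *Cxcl10* (−1.34) came next, and *Trim30a* (−6.03), *Isg15* (−5.70), and *Slfn5* (−5.40) lay at the other end, with 2, 4, and 3 UMIs in the 45 cells. A pair of unnamed clusters with 2 mesenchymal markers among their 100 leading genes, too few for a name, were not alike. Cluster 2 (366 cells, led by *Crabp1* and *Il1rl1*) had the 12 genes at 37.4 CPM [34.5 to 40.3]. Cluster 12 (199 cells, led by *C1qtnf3* and *Cxcl13*) had them at 445 CPM [428 to 462], near the 446 CPM of endothelial-like cells, with *Ifit3* at 53.0 CPM, *Isg15* at 153 CPM, and *Cxcl10* at 125 CPM.

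The spread over single cells was described after each cell had been thinned to 2000 UMIs, with cells under that number left out. In the monocyte/macrophage-like class of the injury site 129 of 1825 cells had UMIs of at least 3 of the 12 strongly inducible genes (7.07% [5.93 to 8.34]), and 67.1% of the cells had none of them. Cluster 9 held 84 of the 129, with a share of 34.9% [28.9 to 41.2] of its 241 cells, and the class without it had a share of 3.28% [2.46 to 4.28]. The share of the class was 2.02% under stricter filters on cells, 3.44% without removal of doublets, 1.72% at a resolution of 2.0, and 0.668% with the interferon lists kept for clustering, the settings in which 15 to 42 cells of the cluster kept the class name. The share was 7.81% [5.33 to 11.0] in blood neutrophil-like, 6.94% [4.09 to 10.9] in endothelial-like, 5.79% [2.93 to 10.1] in dendritic-like cells, and 3.42% [1.72 to 6.03] in neutrophil-like cells of the injury site. It was 1.86% [0.687 to 4.01] in blood and 2.15% [0.700 to 4.94] in marrow monocyte/macrophage-like cells and 1.51% in marrow neutrophil-like cells. Of 181 keratinocyte-like cells 0 met the mark. A limit of 3 counts allows a share of up to 1.66% there, and the Clopper-Pearson interval reaches 2.02%. The intervals of the lowest shares above overlapped that of keratinocyte-like cells. Their lower ends lay above 0, at 0.727% in marrow neutrophil-like cells. Depth alone changed the order, as without thinning the share was 39.6% in blood monocyte/macrophage-like cells (median 19342 UMIs) and 20.9% in those of the injury site (median 11754 UMIs).

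The other members were also higher in the 129 cells, which the 12 genes had picked. The 30 members outside the 12 summed to 9496 CPM there and to 4052 CPM in the remaining 1696 cells. *Herc6* (log2 ratio 4.21), *Isg20* (4.18), *Oasl2* (3.85), *Trim34a* (3.80), and *Phf11d* (3.80) differed most. *Irf9* (0.50), *Ifi27l2a* (0.10), and *Ifitm3* (0.02) differed least. The most abundant members, which lead the full sum, therefore did not separate these cells. *Oas2*, one of the 12, differed by only 1.76.

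**Figure D5:**
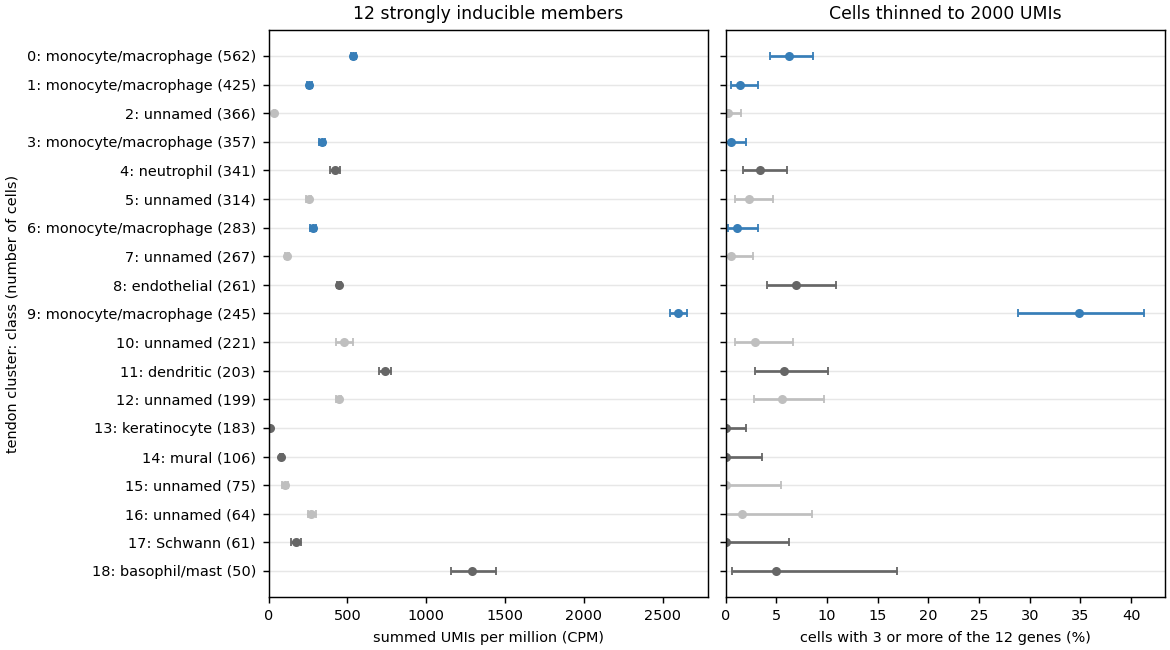
Each cluster of the tendon injury library with at least 50 cells, with the summed level of the 12 strongly inducible members in CPM (left) and the percent of thinned cells with 3 or more of the 12 genes (right), bars of the 95% counting interval, blue for monocyte/macrophage-like clusters, and pale grey for unnamed ones. Cluster 9 stands at 2598 CPM and 34.9%, above the basophil/mast-like cluster 18 at 1294 CPM and 5% and all other clusters shown, and the keratinocyte-like cluster 13 is lowest at 7.20 CPM.

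The genes of the interferons themselves were nearly absent. None of the 13 listed *Ifna* genes had a UMI in any library, and *Ifnb1* had 8 UMIs in 2 cells of the injury site and none elsewhere. Of the other interferon genes, *Ifnab*, *Ifne*, *Ifnk*, and *Ifnz* had no more than 1 UMI in any named class. *Ifng* had 61 UMIs in 40 cells of blood, where NK-like cells had 41.03 CPM [30.5 to 53.9], 49 UMIs in 6 cells of the injury site, and 6 UMIs in 3 cells of marrow. The receptor genes were present in most classes, with *Ifnar2* at 131, 145, and 131 CPM and *Ifnar1* at 43.0, 40.6, and 76.9 CPM in monocyte/macrophage-like cells of marrow, blood, and the injury site. *Ifngr1*, a receptor chain for interferon gamma, was 318, 488, and 299 CPM and its partner *Ifngr2* 108, 94.3, and 82.5 CPM in the same order. Of the chains of the interferon lambda receptor, *Il10rb*, shared with other cytokines, was 40.9, 54.2, and 120.0 CPM, and *Ifnlr1* was 19.7 and 18.7 CPM in neutrophil-like cells of marrow and blood, 4.27 CPM in those of the injury site, and 4.24 CPM or less in all other classes of at least 50 cells. In neutrophil-like cells 3 of 6 receptor genes were at least 2-fold higher and 0 lower in blood than in marrow (13% and 13.4% of all genes), and 0 were higher and 1 lower at the injury site than in blood (13.5% and 16.5%). *Irf1*, a transcription factor induced by interferon gamma and by inflammatory signals, was 40.2, 108, and 195 CPM [174 to 218] in neutrophil-like cells of marrow, blood, and the injury site. *Cxcl9*, a chemokine induced mainly by interferon gamma, was 39.0 CPM in the mixed class, 32.2 CPM in dendritic-like, and 30.5 CPM in endothelial-like cells, and only 1.79 CPM in monocyte/macrophage-like cells of the injury site, where *Cxcl10* was 101 CPM. *Mx1*, a classic type I target outside the 42, was 22.0 CPM [20.1 to 24.0] in monocyte/macrophage-like cells of the injury site. It was 19.0 CPM [15.8 to 22.7] in those of blood, an overlapping interval, and 16.5 CPM in those of marrow. Dendritic-like cells of the injury site had 24.9 CPM. *Mx1* had 0 UMIs in the neutrophil-like cells of marrow and injury site, although C57BL/6 mice are known to carry a defective copy of this gene.

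Lists of related genes, chosen by name, were counted in the same way. Of 63 further genes induced by type I interferon, 59 had enough UMIs in monocyte/macrophage-like cells of the injury site and blood, and 8 were at least 2-fold higher and 7 lower, near the shares of all genes (17.1% and 12.3%). In neutrophil-like cells 3 of 40 were higher and 13 lower for injury site over blood (13.5% and 16.5% of all genes), and 15 of 46 were higher and 4 lower for blood over marrow (13% and 13.4% of all genes). Of 21 genes induced mainly by interferon gamma, 8 had enough UMIs in neutrophil-like cells, and beside those same shares 7 of 8 were higher and 0 lower in blood than in marrow, and 2 of 8 were higher and 5 lower at the injury site than in blood. *Socs1*, a feedback inhibitor that blocks the kinases of the pathway, was 16.0 CPM in monocyte/macrophage-like cells of the injury site and 1.24 CPM in those of blood, while the 8 feedback inhibitors together summed to 791 and 1238 CPM there. Of the 7 with enough UMIs in this comparison, 2 were at least 2-fold higher and 2 lower (17.1% and 12.3% of all genes).

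Across the 17 classes, the level of each member was compared with the mean of the other members by Spearman's rho, as a description, since classes share libraries and depths. The median rho was 0.70, with 32 of 42 members above 0.5 and 0 below 0, and over the 861 pairs of members the median was 0.47. The share of other genes above 0.5 was not counted, so these values alone do not set the members apart from other genes. *Irf7* followed the others most closely (0.95), before *Slfn5* (0.89), *Usp18* (0.89), and *Ifit3* (0.87). *Samd9l* (0.25), *Trim34a* (0.26), *Cxcl10* (0.29), *Sp100* (0.31), and *Ifi44* (0.33) followed least, and these 5 had their highest level in blood B-like cells, in the mixed class, or in blood NK-like cells. Of 12378 other genes with enough UMIs, *Rnf213*, an interferon-inducible ubiquitin ligase, was most like the mean of the members (0.93), followed by *Pip4k2a* (0.90), 9030617O03Rik (0.85), *Pip5k1c* (0.85), *Tapbp* (0.85), *Fam117b* (0.84), *Amz1* (0.84), *Ambra1* (0.83), Gm29336 (0.82), and *Sppl2a* (0.82).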

How the data were processed

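RNA of single cells was measured in 1 library per tissue. The authors deposited raw UMI counts, which Cell Ranger 5.0.1 had produced according to the headers and which carry no normalization. The submitters' processing notes name mm10. The sources used here do not name the annotation release, so genes were placed by their Ensembl identifier in GENCODE M21 (GRCm38). Total counts ranged from 22542581 to 90621052 per library, and intervals cover counting error only.

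Cells needed at least 200 genes and at most 20% mitochondrial UMIs, which left out 15 marrow, 57 blood, and 651 tendon cells. Scrublet scores removed the top 0.8% of cells per 1000 cells (27, 38, and 198 cells). Each library was clustered with scanpy 1.11.5 on 2000 variable genes without 180 interferon genes, 30 principal components, 15 neighbors, and Leiden resolution 1.0 (leidenalg 0.10.2). Clusters were named by the marker list best represented in their 100 leading genes by fold, given at least 3 markers and no tie, unless other lists outnumbered it in the top 10 genes or the cells were shallow (a median under 1/3 of that of the library) with no own marker there. UMIs were summed per class and divided by all UMIs of the class (CPM, per 1000000).

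Groups were taken from the sample labels. Counts have exact Poisson 95% intervals, shares Clopper-Pearson intervals, and ratios the exact binomial split. Genes needed at least 20 UMIs over both groups to be counted as 2-fold changed, and a ratio against 0 used a floor of 3 counts over the group. With 1 library per tissue no test was possible. The scripts were tested on simulated data. Promoter windows came from RefSeq on GRCm38.p6. Other software was matplotlib 3.10.9, scikit-learn 1.9.0, scipy 1.17.1, Python 3.11.15, pandas 2.3.3, and numpy 2.4.6.

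The members and lists were chosen by name with earlier results of these data known. Values were given for the 5 members with the largest and the 3 with the smallest ratio of each comparison, for *Ifit1*, *Ifit3*, *Rsad2*, *Isg15*, *Irf7*, *Usp18*, *Cxcl10*, *Ifitm3*, and *Bst2* across classes, for interferon ligands and 6 receptor genes, *Irf1*, *Mx1*, and *Cxcl9*, and for the 10 genes most like the member mean. Other members were named after their values were seen, and *Socs1* was not among the genes set beforehand. The alternatives changed the filters on cells and genes, doublet removal, resolution, the genes clustered on, joint clustering, naming, weighting, centering, the genes summed, the fold, and the thinning. Leaving out tendon cluster 9 or blood cluster 10, and counting tendon cluster 10 or blood cluster 6 in a class, were added after seeing the data. A gene of the pathway is not reported here, and other experiments of the study were not analysed here.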

Additional observations from a re-analysis of the deposited data

Results flagged for a closer look

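Tissue differences of opposite direction in the 2 myeloid classes set 5 members apart, which were at least 2-fold higher at the injury site than in blood in monocyte/macrophage-like cells and at least 2-fold lower in neutrophil-like cells. The log2 ratios were 1.53 and −2.40 for *Ifit1*, 3.14 and −4.32 for *Ifit2*, 2.32 and −1.35 for *Ifit3*, 3.58 and −1.17 for *Rsad2*, and 1.05 and −2.55 for *Mov10*, in monocyte/macrophage-like and neutrophil-like cells respectively. Of all genes, 17.1% were at least 2-fold higher in the first comparison and 16.5% at least 2-fold lower in the second. How many genes met both was not counted, so whether 5 of 42 is unusual is not known. The difference between the classes was not tested, since each tissue has 1 library, and the neutrophil value of *Ifit2* rests on 1 UMI at the injury site. Without tendon cluster 9 the first values became 0.55, 1.33, 0.65, 2.38, and 0.70, so only *Ifit2* and *Rsad2* stayed 2-fold or more higher in the remaining monocyte/macrophage-like cells. The classes differed in depth, with a median of 4188 UMIs per neutrophil-like cell and 11754 per monocyte/macrophage-like cell of the injury site, and the part of depth in the pattern was not tested.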

How the results depend on the processing

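No paired analysis was possible because each tissue has 1 library, and no library could be left out. The directions of the summed ratios in neutrophil-like cells and of blood over marrow held under every alternative that gave a value. The sum for macrophages of the injury site over blood (−0.55) lost its direction once, at 0.00052 without *Ifitm3*, *Bst2*, *Ifi27l2a*, and *Lgals3bp*. For these cells the sum of the 12 strongly inducible members was higher at the injury site, at 723 against 261 CPM. Cluster 9 held 53.9% of its UMIs there. Under 5 settings 15 to 48 cells of tendon cluster 9 took the macrophage name, against 245, and the cause of the other shifts was not tested. In the values that follow, M is the summed log2 ratio of injury site over blood and B that of blood over marrow in monocyte/macrophage-like cells, N and P are the same in neutrophil-like cells, and S is the percent of thinned macrophage-like cells with 3 or more of the 12 genes (7.07). Counts of members are given there without the shares of all genes at each setting. Without a mitochondrial filter, M was −0.45 with 3 members lower and P 1.09. With at least 500 genes and at most 10% mitochondrial UMIs, M was −0.86 with 2 members higher and 17 lower, B 0.67, N −0.74, P 1.02, S 2.02, and 14 members were lower in neutrophil-like than in macrophage-like cells of the injury site. With no doublets removed, M was −0.71 with 4 higher and 8 lower, N −0.52, P 1.01, and S 3.44. At resolution 0.5, M was −0.52, B 1.64 with 31 higher, N −0.70, and P 1.05. At resolution 2.0, M was −0.69 with 2 higher and 15 lower, B 0.85, N −0.70, S 1.72, and 14 were lower in neutrophil-like than in macrophage-like cells. With the interferon lists kept for clustering, M was −0.76 with 1 higher and 20 lower, N −0.46 with 2 higher, P 1.01, S 0.668, 13 were higher and 12 lower in neutrophil-like than in macrophage-like cells, and 4 were higher in mesenchymal-like cells. With libraries clustered together, N was −0.74, P 1.16, and S 4.71, and M and B had no value, as 1 blood and 0 marrow cells took the macrophage name. With each cell named on its own, M was −0.72, B 0.49 with 6 higher, N −0.72 with 2 higher, and P 1.39. With cells weighted equally, M was −0.62, B 0.46 with 3 higher, N −0.63, and P 0.89. Centered on the median gene, M was −0.52, B 0.84, N −0.43 with 2 higher, P 0.93, and 11 were higher and 12 lower in neutrophil-like than in macrophage-like cells. Without the 4 abundant genes B was 0.58 and P 1.16. With at least 100 UMIs, 0 were lower for B and 0 higher for N, and with no filter on UMIs 2 were higher for N. At 1.5-fold, 11 were lower for M, 24 higher for B, and 3 higher for N. S was 4.58 and 10.9 with cells thinned to 1000 and 4000 UMIs, and 12.7 and 5.42 for 2 or more and 4 or more genes. Without tendon cluster 9, chosen after seeing the data, M was −0.69 with 4 higher and 8 lower, S 3.28, and 17 were lower in neutrophil-like than in macrophage-like cells. Also chosen after seeing the data, N was −0.70 with tendon cluster 10 counted as neutrophil-like, M was −0.51 with 2 lower and B 0.69 with blood cluster 6 counted as macrophage-like, and M was −0.62 and B 0.79 without blood cluster 10. Members with 20 to 50 UMIs, such as *Cxcl10*, *Ifit2*, and *Usp18* in neutrophil-like cells, are limited by depth.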
